A study of Mus musculus with 28 samples.

Results

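The comparison asked whether the g4 vector acted differently on nuclei that carried Cas9 than on nuclei of the same hemispheres in which Cas9 was not detected. For each gene, the g4 minus empty difference in HA-negative nuclei was subtracted from the g4 minus empty difference in HA-positive nuclei. A positive value means that g4 stood higher against empty in HA-positive than in HA-negative nuclei. All 28 libraries of the series entered, 28 of 28, in 4 groups of 7. Motor cortex of 7 mice (17 to 23) was used, and each animal gave 1 library to every group. Strain and age were not given in the sources used here.

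Every animal had received AAV-Cas9-miR-124-empty in the left and AAV-Cas9-miR-124-g4 in the right motor cortex, 2 adeno-associated virus (AAV) vectors that are called empty and g4 here. Thus all hemispheres carried a Cas9 vector, no hemisphere was left uninjected, and vector and side of the brain cannot be told apart. The labels name neither the promoter that drove Cas9 nor what g4 stands for. Tissue was fixed with 1% PFA, and nuclei were stained for the HA tag and sorted. The 4 groups were HA-positive nuclei (listed as positive for the Cas9 HA tag) after empty, the same after g4, HA-negative nuclei after empty and HA-negative nuclei after g4. HA-negative nuclei share the hemisphere, surgery and dissection of the positive ones, and subtracting them takes out what both fractions of a hemisphere have in common. The fractions also differ in cell type, as the marker levels below show. An effect of vector or side that differs by cell type is not taken out. It cannot be told apart from one that depends on Cas9.

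Libraries were made from 40 to 2000 pg of RNA and held 248612 to 902944 counts over 8687 to 13668 detected genes. Empty HA-positive libraries held the fewest genes, 10376 ± 1372 (SD, n = 7), beside 11885 ± 1380 in g4 HA-positive, 12482 ± 624 in empty HA-negative and 12479 ± 858 in g4 HA-negative libraries. The difference of effects in detected genes was 1513 ± 1911 genes, positive in 5 of 7 animals (SD, n = 7; exact two-sided sign-flip test p 0.109, adjusted over 4 library measures 0.436), and its part in the results below was not tested. Markers of inhibitory neurons summed to 3329 to 6656 CPM (counts scaled to a common library size) in HA-positive and 1702 to 2389 CPM in HA-negative libraries. Excitatory neuron markers summed to 1675 to 3394 CPM in HA-positive and 2752 to 3961 CPM in HA-negative libraries. One library stood apart. Libraries of animals 17 to 20 had Y-linked transcripts and no Xist, and those of animals 21 to 23 had Xist and at most 3.83 CPM of Y-linked genes. The exception was the library labelled g4 HA-positive of animal 19, where Xist reached 646 CPM beside 48.1 CPM of Y-linked genes. It is called the doubtful library here. It also held glial transcripts at a level unlike the other HA-positive libraries, and results that rest largely on it are given with and without it.

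MicroRNAs are short RNAs that guide Argonaute proteins to matching sites in the 3′ untranslated regions (UTRs) of messenger RNAs and lower the messages' stability and translation. Bases 2 to 8 of the microRNA, the seed, decide most of the pairing. miR-124 is among the most abundant microRNAs of neurons. Its known targets include the splicing repressor Ptbp1 and a subunit of the BAF chromatin remodelling complex, and their repression is part of how neurons are set apart from other cells. Its mature form is made from hairpins at several loci, each inside a host transcript. Only counts per annotated gene were used here, and none of mature miR-124.

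An 8mer site, GTGCCTTA, is the strongest common match to the miR-124 seed and was present in 2.69% of 20996 annotated 3′ UTRs. Both of its parts count as weaker 7mer sites: GTGCCTT, in 12.8% of UTRs, and TGCCTTA, in 11.4%. The sites below belong to the 6 genes with an 8mer that had the smallest p-values for the difference and to Ptbp3, the splicing regulator whose values are described later. Each line gives 30 bases of the transcript's strand (GENCODE annotation of GRCm38), 5′ to 3′, with the 8mer in capitals.
Lrrc58: gatatgttataGTGCCTTAatcctagtaag
Trf: tcttcgctgctGTGCCTTAccacatacaca
Vat1: gatttgtctcaGTGCCTTAgcatctgaaaa
Myh10: cattacagaaaGTGCCTTAgacactacagt
Lrp1b: ccagcatcaggGTGCCTTAtcaactggaga
Impad1: aaaaaaaagttGTGCCTTAcatagggcgtt
Ptbp3: tttcttattatGTGCCTTAttatgtgctta
The 8mers lie at chr16:37882037-37882044 on the plus strand (Lrrc58), chr9:103208918-103208925 on the minus strand (Trf), chr11:101459477-101459484 on the minus strand (Vat1) and chr11:68816165-68816172 on the plus strand (Myh10). Those of Lrp1b (chr2:42652146-42652153), Impad1 (chr4:4764331-4764338) and Ptbp3 (chr4:59475845-59475852) are on the minus strand. All 7 are in 3′ UTR exons, and a match describes the letters only, not binding.

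No gene passed the test of the difference. Of 7197 genes with enough counts, 0 (0.0%) had a Benjamini-Hochberg adjusted p under 0.05 by edgeR's quasi-likelihood test, and the smallest adjusted p was 0.414. An unadjusted p under 0.05 was found for 359 genes (4.99%), 234 higher (3.25%) and 125 lower (1.74%). In counts from this test, higher and lower mean a positive and a negative difference of vector effects, not the level in a fraction. Fitted values were positive for 53.2% and negative for 46.8% of the 7197 genes. DESeq2 called 0 genes too, with 429 under an unadjusted p of 0.05, and limma voom called 0, with 468. With no filter on low counts, 2 of 19569 genes were called higher (0.0102%) and 1 lower (0.00511%). The higher ones were the myelin gene Cldn11, with 2 counts in empty HA-positive nuclei, and Gm49804, with 17 counts in 2 g4 HA-positive libraries and 28 in 3 empty HA-negative ones. The lower one was Gm9833, with 26 counts in 2 empty HA-positive libraries and 10 in 1 g4 HA-negative library. The values given for single genes from here on therefore describe differences that did not pass over all genes.

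The precision of a single gene was limited. The median standard error (SE) of a difference was 0.51 on the log2 scale and the median 95% interval reached 1.02 to either side. Among the 1350 genes with a mean of at least 100 CPM the interval reached 0.51, and 60 of these were higher and 34 lower at an unadjusted p under 0.05, or 43 higher and 41 lower without the doubtful library. Over all genes the surplus of higher over lower became smaller without the library that held both sets of sex-linked transcripts: 190 of 7389 genes were then higher (2.57%) and 143 lower (1.94%). Of the 234 higher genes, 168 stayed higher at an unadjusted p under 0.05 without it, and of the 125 lower genes 102 stayed lower.

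In most of the genes with an unadjusted p under 0.05 the vector effect was larger in HA-positive nuclei. Of the 234 higher genes, 212 had the larger of their vector effects in HA-positive nuclei, with a median of 0.98 there and -0.23 in HA-negative nuclei. Of the 125 lower genes, 106 had the larger effect in HA-positive nuclei, with medians of -0.70 and 0.31. Opposite signs in the fractions were common, with 178 of the higher genes up in HA-positive and down in HA-negative nuclei, and 115 of the lower genes the reverse. Over all 7197 tested genes the vector effects were also spread more widely in HA-positive nuclei. Their lower and upper quartiles were -0.23 and 0.3 there, and -0.18 and 0.17 in HA-negative nuclei. How many of all genes had the larger effect in HA-positive nuclei was not counted. Since the 234 higher and 125 lower genes were picked by this difference, the counts describe them and test nothing.

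**Figure D1:**
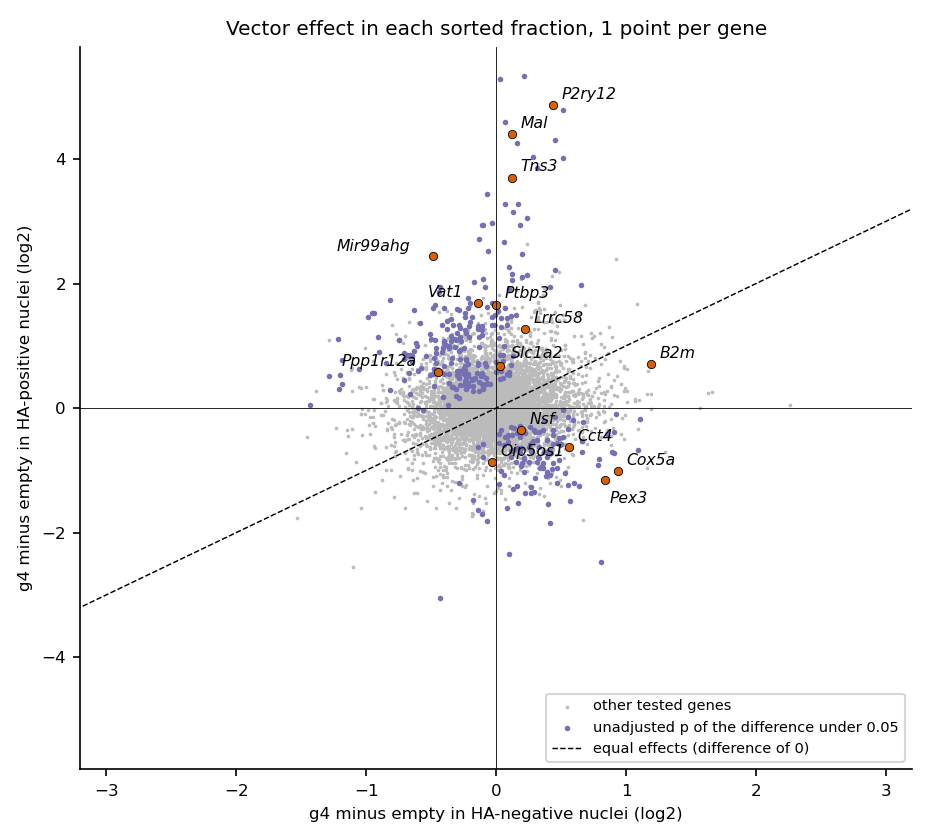
Each point is 1 of 7197 tested genes, placed by its g4 minus empty log2 difference in HA-negative nuclei (horizontal) and in HA-positive nuclei (vertical), the axes differ in scale and the dashed line marks equal effects. The 359 genes with an unadjusted p under 0.05 (purple) lie away from that line, 234 above and 125 below it, and 15 named genes are in orange.

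By animal, the difference could be taken from 4 libraries at a time, as the g4 minus empty log2 CPM of the positive fraction minus that of the negative one. Its median over genes lay between -0.07 in animal 18 and 0.19 in animal 21. The sign was positive in all 7 animals for 102 genes (1.42%) and negative in all 7 for 46 genes (0.639%). It was positive in 6 or 7 animals for 650 genes (9.03%) and negative in 6 or 7 for 334 (4.64%), against which the counts of animals below can be read. Among the genes with an unadjusted p under 0.05, 54 of the 234 higher and 16 of the 125 lower had one sign in all 7 animals.

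Lrrc58 (chromosome 16, 37868389 to 37888858), which encodes a leucine-rich repeat protein and holds 5 miR-124 sites of which the 8mer shown above is the longest, was among the genes with the smallest p-values. In HA-positive nuclei it ranged from 82.5 to 168 CPM (median 124) after empty and from 130 to 403 CPM (median 309) after g4. In HA-negative nuclei it ranged from 79.2 to 140 CPM (median 105) after empty and from 67.8 to 171 CPM (median 142) after g4. Within HA-positive nuclei only the g4 library of animal 19, at 130 CPM, reached into the range of the empty libraries, and the other 6 lay at 291 CPM or above. The difference of effects was 1.05 ± 0.30 on the log2 scale (SE, 7 libraries per group; adjusted p 0.797 by edgeR), positive in 7 of 7 animals. Without the doubtful library it was 1.18 with an adjusted p of 0.306.

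Tns3 (chromosome 11, 8431652 to 8664535), a tensin that links integrins to the actin skeleton, had the smallest p among the positive differences. In HA-positive nuclei it had 0 counts in 5 of 7 empty libraries and at most 2.94 CPM, and 2.87 to 21.4 CPM (median 12.9) after g4. HA-negative nuclei held 19.7 to 28.8 CPM (median 24.6) after empty and 13.6 to 40.8 CPM (median 26.5) after g4. The g4 HA-positive level thus lay between the near-empty counterpart and the HA-negative one. Only 2 counts stood behind the empty HA-positive group against 50 after g4, a ratio of 18.5 with an exact binomial 95% interval of 4.85 to 157 that covers counting error only. Without the doubtful library the ratio was 15.6. The fitted difference was 3.58 ± 0.88 (adjusted p 0.588 by edgeR), positive in 7 of 7 animals.

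Mir99ahg (chromosome 16, 77236317 to 77773427), the host transcript of a microRNA cluster other than miR-124, ranged from 0 to 13 CPM (median 2.82) after empty and from 8.61 to 41.4 CPM (median 18.2) after g4 in HA-positive nuclei. In HA-negative nuclei the order was the other way, with medians of 30 CPM after empty and 16.9 CPM after g4. Its difference was positive in 6 of 7 animals and 0.00 in animal 20. Ppp1r12a, the targeting subunit of myosin phosphatase, showed the same crossing. Its medians were 124 CPM after empty and 159 CPM after g4 in HA-positive nuclei, and 215 and 133 CPM in HA-negative nuclei, and all groups overlapped their counterparts. Of its difference of 1.02, 0.58 came from the positive and -0.45 from the negative fraction.

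The remaining leading positive differences were 0.83 ± 0.23 for Phactr1, a phosphatase and actin regulator (positive in 5 of 7 animals), and 1.22 ± 0.36 for Myef2, a repressor of myelin gene transcription (6 of 7). Anln (3.04 ± 0.88), an actin-binding protein also made by myelinating cells, the myelin gene Mal (4.28 ± 1.16), the microglial receptor gene P2ry12 (4.43 ± 1.28) and the homeobox gene Zfhx3 (3.55 ± 1.05) completed the 10. Anln, Mal and Zfhx3 were positive in 6 of 7 animals and P2ry12 in 4 of 7, with a median over animals of 0.07. All 6 genes of this paragraph had adjusted p-values of 0.797 by edgeR. In these last 4 genes the library of animal 19 gave the highest g4 HA-positive value, and without it their differences were 1.75, 2.60, 2.76 and 2.80. Fitted values of genes with so few counts depend on the prior count and are no bounds. Zfhx3 had 1 count in the empty HA-positive libraries and 37 after g4, or 15 without the doubtful library (ratios of 27.3, interval 4.61 to 1108, and 14.6, interval 2.24 to 614).

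Of the negative differences, Oip5os1 (chromosome 2, 119594297 to 119607502), also called Cyrano and known for directing the decay of another microRNA, had the smallest p of all genes. HA-positive nuclei held 580 to 1194 CPM (median 687) after empty and 375 to 536 CPM (median 409) after g4. The groups did not overlap, as was the case for 6 genes in this direction (0.0834%) and 11 in the other (0.153%). In HA-negative nuclei the ranges covered each other, 365 to 617 CPM (median 494) and 367 to 627 CPM (median 468). After g4 the HA-positive level lay near that of both HA-negative groups, and the empty HA-positive group was the high one. The difference was negative in 7 of 7 animals, from -1.33 in animal 17 to -0.11 in animal 23, and without the doubtful library the adjusted p was 0.109 by edgeR.

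Cox5a (chromosome 9, 57521274 to 57532426), a nuclear-encoded subunit of cytochrome c oxidase, had medians of 40.7 CPM after empty and 28.8 CPM after g4 in HA-positive nuclei and of 19.1 and 40.7 CPM in HA-negative nuclei. Its difference of -1.95 ± 0.57 was shared by the fractions, with -1.01 in HA-positive and 0.94 in HA-negative nuclei, and was negative in 7 of 7 animals. Nsf, the ATPase that takes apart spent vesicle fusion complexes, had HA-positive levels of 588 to 868 CPM (median 826) after empty and 436 to 742 CPM (median 569) after g4. Its HA-negative medians were 516 and 587 CPM, and the difference of -0.54 ± 0.17 was negative in 7 of 7 animals. Cct4, a subunit of the chaperonin that folds actin and tubulin, gave -1.19 ± 0.38 and was likewise negative in 7 of 7. In its HA-positive libraries 53.5 to 103 CPM after empty faced 34.4 to 54.5 CPM after g4, an overlap of a single g4 library. These 3 genes had adjusted p-values of 0.797 by edgeR.

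**Figure D2:**
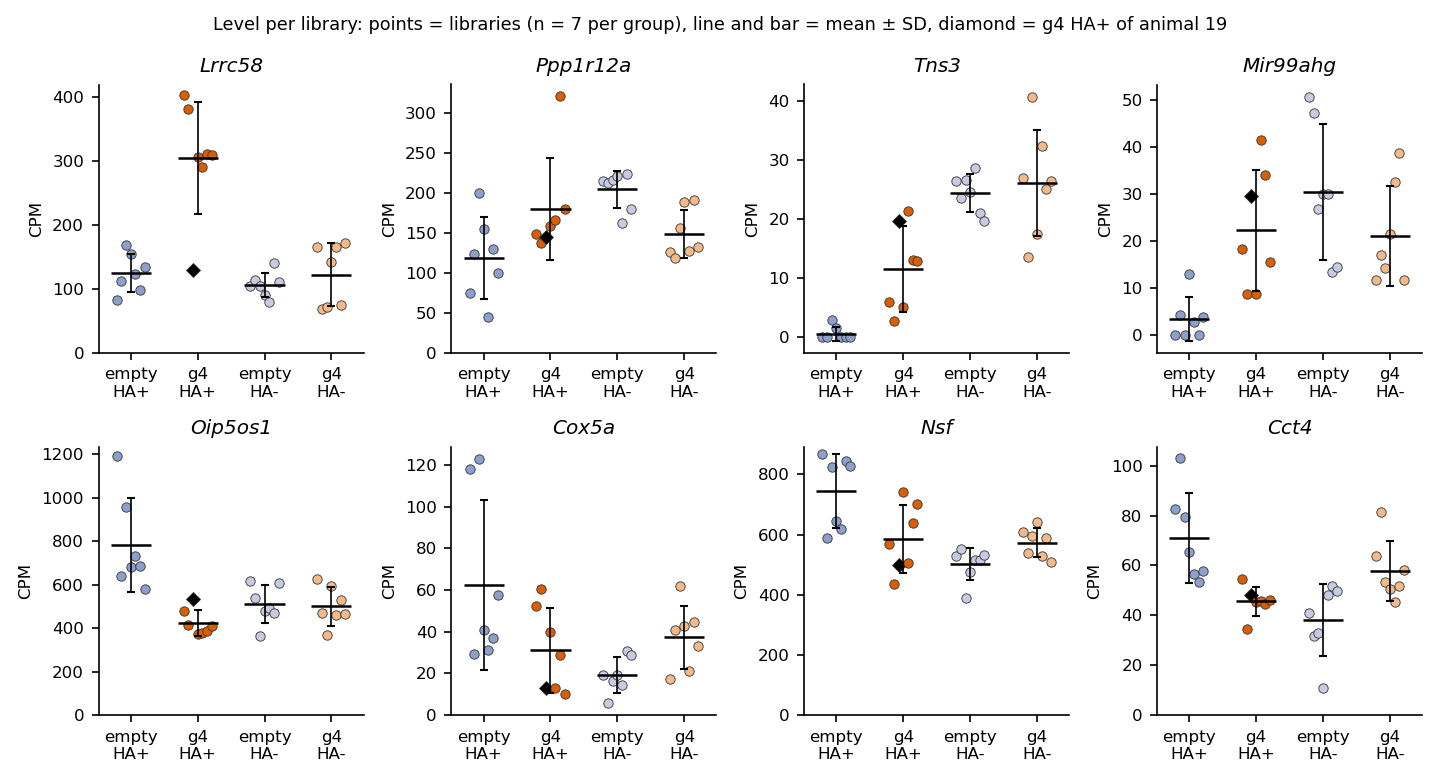
CPM of 8 leading genes in each of the 28 libraries, grouped by vector and sorted fraction, with the mean and SD of 7 libraries and the g4 HA-positive library of animal 19 as a diamond. For Lrrc58, 6 of 7 g4 HA-positive libraries lie at 291 CPM or above while no other library exceeds 171 CPM, and for Oip5os1 the empty HA-positive libraries lie at 580 CPM or above with all g4 HA-positive libraries at 536 CPM or below.

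The other 6 leading negative genes had one animal each against the sign. Pex3, needed to form peroxisomes, gave -1.99 ± 0.63, and its HA-positive groups did not overlap, at 21.5 to 40 CPM after empty and 2.02 to 20.1 CPM after g4. Lifr, a cytokine receptor gene, gave -1.01 ± 0.32, and Nlk, a kinase of the Wnt pathway, gave -0.89 ± 0.28. Hapln4, a link protein of the matrix around fast-spiking neurons, gave -1.06 ± 0.37, with HA-positive medians of 114 and 52.8 CPM. Mpped1, a metallophosphoesterase gene, gave -1.12 ± 0.41 and Sh3glb2, an endophilin of the B class, gave -1.43 ± 0.53. Their adjusted p-values were 0.797 to 0.924 by edgeR. A miR-124 site was present in 1 of the 9 leading negative genes with an annotated 3′ UTR (a 7mer in Lifr), in 2 of the 9 such leading positive genes (Lrrc58 and a 7mer in Tns3) and in 1911 of all 6922 tested genes with a 3′ UTR.

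Within HA-positive nuclei alone, the same model called 8 of 7197 genes (0.111%), 6 higher (0.0834%) and 2 lower (0.0278%) after g4. There 736 genes had an unadjusted p under 0.05. In HA-negative nuclei it called 0 (0.0%), with 104 under an unadjusted p of 0.05, a share below the 0.05 that no effect would give. The model shared 1 estimate of the spread per gene over both fractions, and what this did to the 2 counts was not tested. DESeq2 and limma voom also called 0 in HA-negative nuclei. A call in one fraction and none in the other is not a difference between them, and for none of the 8 did the difference itself pass. Lrrc58, Tns3, Oip5os1, the voltage-gated potassium channel gene Kcnq3, the 8mer gene Vat1 and 3 genes chosen after their values were seen (Thrb, Slit1 and Vamp1) made up the 8. Thrb, a thyroid hormone receptor gene, had 62.1 to 112 CPM after empty and 134 to 212 CPM after g4 without overlap in HA-positive nuclei, and HA-negative medians of 93.1 and 94.8 CPM. Its difference was 0.80 ± 0.27, seen with that sign in each animal (adjusted p 0.924 by edgeR). Slit1, an axon guidance ligand, had HA-positive medians of 22.6 and 54 CPM and HA-negative medians of 43.4 and 38.7 CPM, with a difference of 1.56 ± 0.48 in 7 of 7 animals (adjusted p 0.797 by edgeR). For Vamp1, a vesicle fusion protein, g4 was lower in both fractions, by -1.09 in HA-positive and -0.46 in HA-negative nuclei, which left a difference of -0.63 ± 0.35 (adjusted p 0.985 by edgeR). The count of 8 ranged from 2 to 65 over the settings tried, with 3 when the HA-positive libraries were fitted alone, 3 without animal 22, 4 without animal 21 and 2 without the libraries under 10000 detected genes.

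Genes with an 8mer site for miR-124 stood higher in the difference than genes without a site. Of 6922 tested genes with an annotated 3′ UTR, 259 held an 8mer (of 565 such genes in the table), and their median difference was 0.17 on the log2 scale. The 1652 genes with 7mer sites only had a median of 0.06 and the 5011 genes without a site 0.01. Positive differences made up 67.6% of the 8mer genes, 55.8% of the 7mer genes and 50.6% of genes without a site, beside 53.2% of all genes tested. At an unadjusted p under 0.05, 21 of the 8mer genes were higher and 3 lower (8.11% and 1.16%). For genes without a site these shares were 2.53% and 1.80%, or 127 higher and 90 lower. Without the doubtful library 16 of the 8mer genes were higher and 5 lower, and of the genes without a site 94 were higher and 104 lower. A positive sign in all 7 animals was found for 7 of the 8mer genes and a negative sign for 1. As with every group of genes below, these are counts and medians beside those of all genes, with no test of the group. Of the 27 gene lists with tested members that are described below, 22 had a positive median difference.

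The 8mer genes exceeded genes without a site in each animal. The shift between the medians, from animal 17 to animal 23, was 0.27, 0.02, 0.28, 0.03, 0.10, 0.14 and 0.17, a mean of 0.15 ± 0.11 (SD, n = 7). All 7 values were positive, but those of animals 18 and 20 were near 0. In HA-positive nuclei alone the shift ran from 0.13 to 0.37, and in HA-negative nuclei from -0.06 to 0.14 with animal 22 below 0. The positive fraction exceeded the negative one in every animal, by least in animal 18. The shift of the fitted values was 0.17 for the difference, made of 0.24 in HA-positive and 0.05 in HA-negative nuclei, and stayed at 0.17 without the doubtful library.

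The shift of the fitted values was positive in each tertile of 3′ UTR length and of expression, but not in each animal within them. By tertiles of 3′ UTR length (bounds at 1111 and 2511 bases) it was 0.36 for 17 8mer genes with short UTRs, 0.33 for 65 with middle ones and 0.14 for 177 with long ones. Long 3′ UTRs held most of the 8mer genes and the smallest shift. Across tertiles of mean CPM, from low to high, it was 0.28, 0.17 and 0.15, and without the genes of 4 glial marker lists 0.16. By animal, the lowest CPM tertile gave 0.13 ± 0.20 (SD, n = 7), positive in 5 of 7, the middle one was positive in 6 of 7 and the highest in 7 of 7. Short 3′ UTRs gave 0.44 ± 0.59, positive in 6 of 7, and middle and long ones were positive in 7 of 7. With the glial genes removed the shift by animal was 0.13 ± 0.13, positive in 6 of 7.

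**Figure D3:**
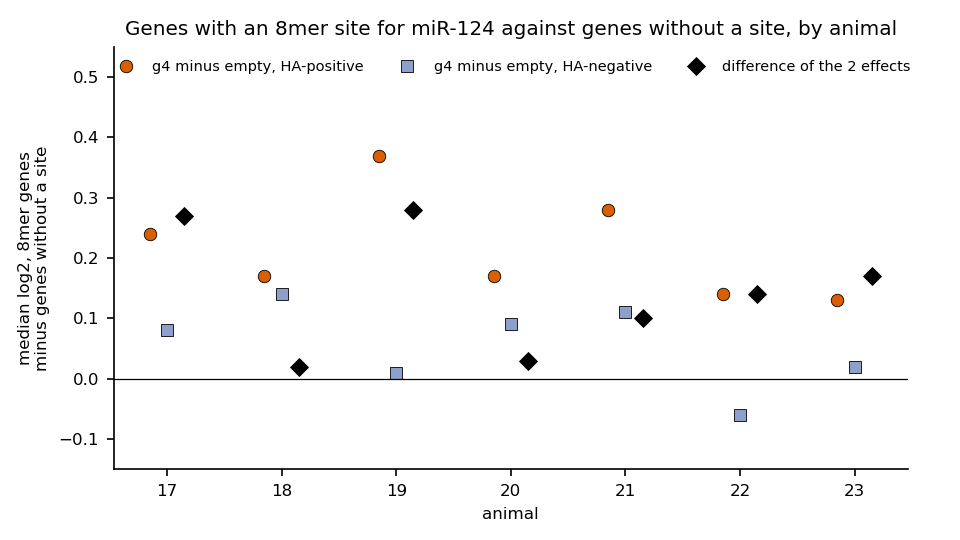
For each animal, the median log2 value of the 259 genes with an 8mer site minus that of the 5011 genes without a site, for the g4 minus empty effect in HA-positive nuclei (circles), in HA-negative nuclei (squares) and for the difference of the effects (diamonds). Circles lie between 0.13 and 0.37, squares between -0.06 and 0.14 and diamonds between 0.02 and 0.28.

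Single 8mer genes were as variable as others. Vat1, a vesicle membrane protein, had 10.8 to 42.2 CPM (median 24.4) after empty and 31.7 to 152 CPM (median 70.6) after g4 in HA-positive nuclei, with medians of 13.6 CPM in both HA-negative groups. The g4 library of animal 19 was the lowest of its group at 31.7 CPM. The difference of Vat1 was 1.82 ± 0.58, positive in 5 of 7 animals (adjusted p 0.797 by edgeR). Myh10, a nonmuscle myosin heavy chain, had a smaller difference, positive in 7 of 7 animals. It had 220 to 316 CPM after empty and 304 to 392 CPM after g4 in HA-positive nuclei, HA-negative medians of 297 and 259 CPM, and a difference of 0.55 ± 0.19. Lrp1b, a receptor of the low-density lipoprotein receptor family, was also positive in 7 of 7 animals, at 0.66 ± 0.24. Impad1, a Golgi phosphatase gene, went the other way at -0.69 ± 0.26, negative in 6 of 7. These 3 had adjusted p-values of 0.924 by edgeR. Trf, the iron carrier gene of oligodendrocytes, gave 4.09 ± 1.18, and 2.51 without the doubtful library, which alone held 193 CPM beside at most 27.1 CPM in the other HA-positive libraries.

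Among reported targets of miR-124, 12 of 27 had enough counts and 9 of these had a positive difference, with a median of 0.46, or 0.45 without the doubtful library, against 0.03 over all genes. Itgb1, an integrin subunit with 2 7mer sites, and Lamc1, a laminin chain with 3, were the 2 with an unadjusted p under 0.05, and 0 were lower at that level. Itgb1 had 0 to 38.4 CPM (median 17.9) after empty and 38.6 to 86.3 CPM (median 61) after g4 in HA-positive nuclei, without overlap. The HA-negative medians were 34.5 and 36.8 CPM. Its difference was 1.49 ± 0.55, positive in 5 of 7 animals, and Lamc1 had 1.77 ± 0.80, positive in 6 of 7 (adjusted p 0.924 and 0.971 by edgeR). The abundant AMPA receptor gene Gria2, which holds an 8mer, had a difference of 0.30 ± 0.16, and the transcription factor genes Egr1 and Nr3c1 had 0.30 ± 0.20 and -0.40 ± 0.31. By animal the list median was positive in 5 of 7 and ranged from -0.39 to 0.63.

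Ptbp1 and a subunit of the BAF complex are known targets of miR-124, and the lists below also hold other genes of both groups. Of 20 tested genes for PTB proteins and other neuronal splicing regulators, 16 had a positive difference, with a median of 0.29 (0.23 without the doubtful library), and the list median was positive in 7 of 7 animals, from 0.01 to 0.78. Ptbp3, a PTB-family splicing repressor, had 0 to 16.9 CPM (median 6.52) after empty and 12.1 to 49.7 CPM (median 23.2) after g4 in HA-positive nuclei. In HA-negative nuclei its medians were 27.5 and 32.6 CPM, so that the empty HA-positive group was the low one. The difference of Ptbp3 was 1.66 ± 0.64 (adjusted p 0.924 by edgeR), with a positive sign in 7 of 7 animals. The RNA-binding protein genes Celf1 and Celf2 had 0.53 ± 0.24 and 0.32 ± 0.17, positive in 6 and 7 animals, or 0.37 and 0.23 without the doubtful library. Their 3′ UTRs hold no miR-124 site. Ptbp1 itself did not have enough counts to be tested.

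Of 16 tested BAF subunit genes 12 had a positive difference, with a median of 0.41 (0.34 without the doubtful library), positive in 7 of 7 animals from 0.03 to 0.73. The median vector effect of the tested genes was 0.13 in HA-positive and -0.16 in HA-negative nuclei. Summed over all 20 listed subunits, HA-positive means were 1307 CPM after empty and 1304 CPM after g4. The HA-negative means were 1383 and 1231 CPM, so the sum differed mainly in HA-negative nuclei. Smarce1, a DNA-binding core subunit, had HA-positive medians of 12.6 CPM after empty and 22.6 CPM after g4 and HA-negative medians of 24.1 and 29 CPM. Its difference of 1.51 ± 0.63 was positive in 7 of 7 animals (adjusted p 0.924 by edgeR). Smarca2, an ATPase of the complex, owed its 0.41 ± 0.21 to the HA-negative side, where g4 was lower by -0.48, while HA-positive nuclei differed by -0.07. The 3′ UTRs of Smarce1 and Smarca2 hold no miR-124 site. In both lists, 2 and 1 genes were higher and 0 lower at an unadjusted p under 0.05.

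Among the miR-124 loci, a hairpin had counts in 1 group only. Mir124a-2 (chromosome 3, 17795662 to 17795770) had 57 counts in g4 HA-positive libraries and 0 in the 21 others, a per-animal difference of 13.8 ± 18.7 CPM (SD, n = 7), above 0 in 6 of 7 animals. Of the 57 counts 30 were in animal 20, without which the difference was 7.41 ± 8.65 CPM. No negative difference was possible with the other libraries at 0, so the exact two-sided sign-flip p of 0.0312 is the smallest that 6 non-zero animals can give and reflects their number alone. Its host transcript Mir124-2hg had medians of 63.2 and 146 CPM in HA-positive and 30 and 42.6 CPM in HA-negative nuclei and a difference of 0.57 ± 0.61 and Mir124a-1hg of 0.16 ± 0.38, and -0.01 without the doubtful library. Of 15 microRNA machinery genes, which process and load microRNAs, 12 had a positive difference with a median of 0.05, and 0 reached an unadjusted p under 0.05. Without the doubtful library 9 of the 15 were positive, with a median of 0.04.

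Long noncoding RNAs of the nucleus were mostly on the positive side, 10 of 13, with a median of 0.32 (0.23 without the doubtful library). Malat1, the abundant RNA of nuclear speckles, had medians of 9016 and 10381 CPM in HA-positive and 13406 and 11734 CPM in HA-negative nuclei. The difference was 0.64 ± 0.24 in 7 of 7 animals, with the highest value, 1.67, in animal 19, and was 0.53 without the doubtful library. Rian, an imprinted microRNA and small nucleolar RNA host, had 417 to 896 CPM after empty and 716 to 939 CPM after g4 in HA-positive nuclei and a difference of 0.44 ± 0.18 in 6 of 7 animals (both adjusted p 0.924 by edgeR). Oip5os1 was the member with the lowest value, -0.85. All 5 tested hosts of other microRNAs were positive, with a median of 0.44, and 3 of them (Mirg, Rian and Meg3) stand in both lists.

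Medians of the 3 lists of excitatory and inhibitory neuron genes ran from -0.13 to 0.43. Of 15 excitatory neuron markers 9 were positive (median 0.25), among them Nrgn, a postsynaptic calmodulin-binding protein, with 0.36 ± 0.25 in 7 of 7 animals. Of 20 genes of excitatory layers 15 were positive (median 0.43, and 0.22 without the doubtful library), with 4 higher and 0 lower at an unadjusted p under 0.05. The 4 were Syt6 (2.20 ± 0.85), Lmo4 (0.71 ± 0.28), Pcp4 (0.93 ± 0.38) and Tshz2 (1.69 ± 0.78). Without the doubtful library their differences were 1.63, 0.67, 0.77 and 1.82. For Pcp4, a calmodulin regulator of deep layers, the HA-positive medians were 65.8 and 154 CPM and the HA-negative ones 237 and 328 CPM. Inhibitory neuron markers went the other way, with 10 of 26 positive and a median of -0.13 (-0.04 without the doubtful library). Reln, the secreted glycoprotein of some interneurons, had 129 to 414 CPM (median 300) after empty and 129 to 206 CPM (median 180) after g4 in HA-positive nuclei, and -0.68 ± 0.26 as the difference, negative in 6 of 7 animals. Gad1, which makes GABA, had a difference of -0.14 ± 0.28. In bulk nuclei, fewer nuclei of a type and less RNA per nucleus cannot be told apart.

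Genes of excitability and release centred on 0. Medians were 0.01 for 26 potassium channel genes, 0.01 for 20 sodium, calcium and HCN channel genes, 0.06 for 29 glutamate and GABA receptor genes and -0.05 for 24 presynaptic genes. Kcnq3, which makes the M-current that damps firing, had 293 to 484 CPM after empty and 496 to 641 CPM after g4 in HA-positive nuclei without overlap. The HA-negative ranges of Kcnq3 overlapped, with medians of 372 and 391 CPM, and its difference was 0.49 ± 0.17 in 6 of 7 animals (adjusted p 0.924 by edgeR). Of the 20 sodium, calcium and HCN channel genes, 3 were lower and 0 higher at an unadjusted p under 0.05, among them the pacemaker channel gene Hcn2 (-0.89 ± 0.38) and the axonal sodium channel gene Scn8a (-0.43 ± 0.19). The presynaptic complexin gene Cplx2 had -0.48 ± 0.22, beside Nsf, and the kainate receptor gene Grik5 -0.84 ± 0.41. Each of these 4 failed over all genes (adjusted p 0.924 to 0.979 by edgeR).

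Among lists with at least 5 tested members, oligodendrocyte and microglia markers gave the largest medians, and these rested on 1 library. The 18 tested oligodendrocyte markers had a median difference of 1.54, or 0.18 with the doubtful library left out, and the 13 microglia markers 1.56, or -0.22 without it. Set to a floor of 3 counts over the group, the genes with 0 counts in a group lowered the medians with all libraries to 1.47 and 1.42, and without that library to 0.16 and -0.59, with 1 of 2 and 5 of 6 such genes left out. Summed over the list, oligodendrocyte markers stood at 2148 CPM in that library, at 212 to 488 CPM in the other 6 of its group, at 249 to 697 CPM in empty HA-positive and at 1845 to 3790 CPM in HA-negative libraries. Most of the empty HA-positive sum was 1 gene, Myrf, with a mean of 318 CPM beside 457 CPM for the list. In the other 6 g4 HA-positive libraries the mean of Myrf was 112 CPM. The sums of the HA-positive groups therefore do not compare the other markers. Microglia markers stood at 546 CPM in the doubtful library, at 5.74 to 59.2 CPM in the other 6 of its group, at 32.6 to 73 CPM in empty HA-positive and at 418 to 930 CPM in HA-negative libraries. The doubtful library thus held glial transcripts at the level of HA-negative nuclei. It also had the lowest inhibitory neuron marker sum of the HA-positive libraries, at 3329 CPM.

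Mal illustrates the pattern. It had 148 CPM in that library and 3.48 to 20 CPM in the other g4 HA-positive libraries, 0 to 7.68 CPM after empty, and 126 to 311 CPM in HA-negative libraries. Mag, an adhesion protein of myelin, had a difference of 3.51 ± 1.05, and 2.11 without the library. Cldn11, the tight junction protein of myelin, had 3.76 ± 1.15, and 1.78 without the library. Dock10, a guanine exchange factor, had 1.87 ± 0.66, and 1.04 without the library. Myrf, the transcription factor of myelin genes, was 1 of 3 markers in the list with a negative difference, -1.18 ± 0.68, with HA-positive medians of 337 CPM after empty and 109 CPM after g4. Among microglial genes, P2ry12 had 0 counts after empty and 31 after g4 in HA-positive nuclei, at least 7.63-fold higher against 3 counts over the group, or at least 1.94-fold without the library. Cx3cr1, the fractalkine receptor, had 48 counts in that library and 0 in the other 13 HA-positive ones. Csf1r, a growth factor receptor, had a difference of 1.56 ± 1.01 that turned to -0.91 without the library.

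Astrocyte markers did not rest on it to the same degree. Of 16 tested, 14 were positive, with a median of 0.64, or 0.55 without the doubtful library, and 4 were higher and 0 lower at an unadjusted p under 0.05. Without that library 3 were higher and 0 lower at that level. Slc1a2, through which astrocytes clear glutamate, had 527 to 1087 CPM (median 597) after empty and 746 to 1727 CPM (median 1043) after g4 in HA-positive nuclei. HA-negative nuclei held medians of 1105 and 1090 CPM. Its difference was 0.64 ± 0.21 (adjusted p 0.924 by edgeR), with 7 of 7 animals positive. The lipid carrier genes Apoe and Clu had differences of 1.01 ± 0.40 and 0.81 ± 0.39, or 0.9 and 0.66 without the doubtful library. Summed astrocyte markers ranged from 944 to 2020 CPM (median 1008) in empty HA-positive, 1305 to 3515 CPM (median 1925) in g4 HA-positive and 1715 to 2646 CPM in HA-negative libraries, and the highest library was not that of animal 19.

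**Figure D4:**
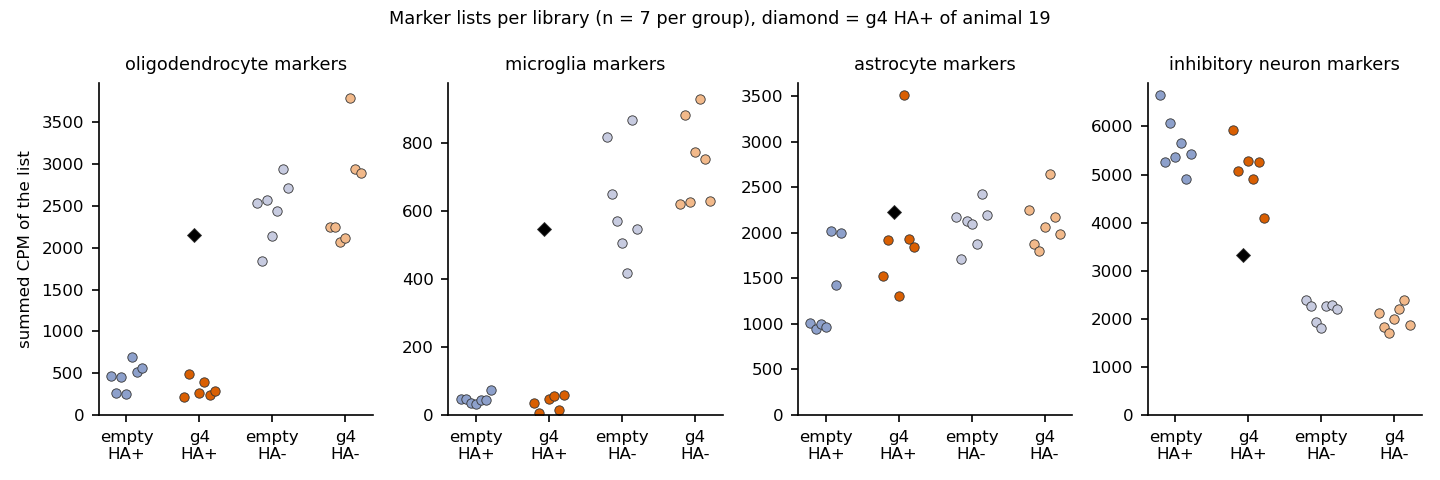
Summed CPM of 4 marker lists in each of the 28 libraries, with the g4 HA-positive library of animal 19 as a diamond. Oligodendrocyte and microglia markers in that library, at 2148 and 546 CPM, lie with the HA-negative libraries, while the other HA-positive libraries stay at or below 697 and 73 CPM. Myrf alone averages 318 CPM of the oligodendrocyte sum in empty HA-positive libraries.

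The other lists follow. Precursors of oligodendrocytes (8 tested, median 0.45, and 0.08 without the doubtful library) and striatal projection neurons (14 tested, 0.68 and 0.15) also had lower medians without it. Striatal genes summed to 1159 CPM in that library, to 405 to 640 CPM in the other 6 of its group and to 684 to 3716 CPM in HA-negative ones. Genes of the p53 and DNA break response, a pathway of interest after any nuclease, had 11 of 12 positive differences with a median of 0.34 and 0 with an unadjusted p under 0.05. Immediate early genes had a median of 0.20 (17 tested), mitochondrially encoded genes 0.10 (15) and nuclear-encoded respiratory chain genes -0.07 (26), of which Cox5a was the 1 lower gene. Of 23 interferon and antigen presentation genes 2 were tested. Among them was B2m, part of the class I antigen complex. It was higher after g4 without overlap in HA-negative nuclei, at 14.4 to 32.6 CPM after empty and 37 to 78 CPM after g4, as 4 genes were (0.0556%, with 3 or 0.0417% below), and had medians of 17.9 and 28.8 CPM in HA-positive nuclei, a difference of -0.48 ± 0.55. Of endothelial markers 1 was tested, of erythrocyte genes 2, and of mural and lymphocyte markers 0.

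**Figure D5:**
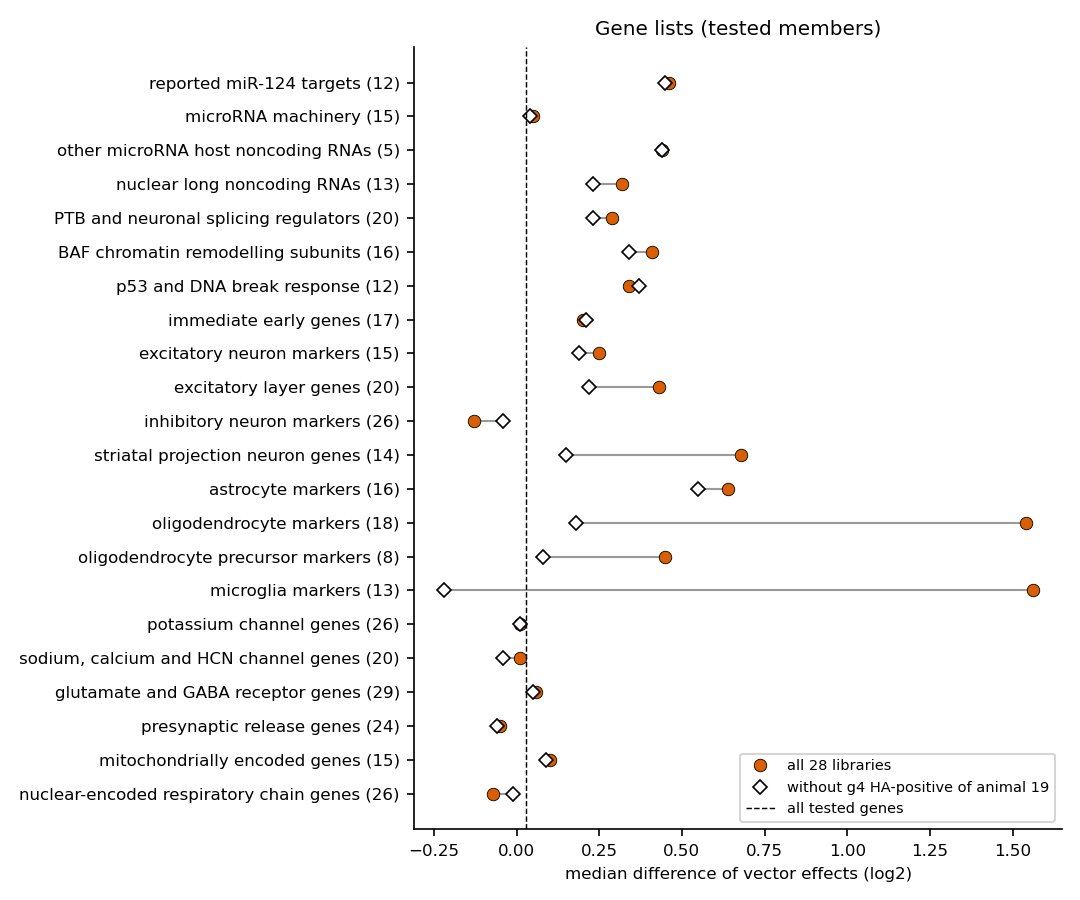
Median difference of vector effects for each gene list with at least 5 tested members (number in brackets, sex-linked genes left out), with all 28 libraries (filled) and with the doubtful library left out (open), with the median of all tested genes at 0.03 dashed. Lines are long for microglia, oligodendrocyte and striatal genes and short for reported miR-124 targets, BAF subunits and splicing regulators.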

How the data were processed

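RNA of HA-positive and HA-negative nuclei was counted in 28 libraries. The authors deposited raw counts, as the labels name them, and all values are whole. The genome build GRCm38 is named in the submitters' processing notes, while the aligner, the counter, the strand setting and molecular identifiers were not given in the sources used here. Without strand, reads of overlapping genes cannot be told apart. Both tables were joined by Ensembl identifier, with missing cells as a count of 0. They had 41550 entries, 1 of which named no gene and was left out, and 0 columns without a sample. For 3 animals the column number was 1 higher than in the sample title, and the sample descriptions tied them. The animal is the replicate.

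Genes were tested in 1 edgeR 4.0.16 model (R 4.3.3; filterByExpr, TMM factors, robust quasi-likelihood, two-sided) over 4 groups, 7 libraries each, with the contrast (g4 HA-positive minus empty HA-positive) minus (g4 HA-negative minus empty HA-negative). Calls used a Benjamini-Hochberg adjusted p under 0.05. Values per animal are differences of log2 CPM with a prior count of 2. The SE of a fitted difference is its absolute log2 value divided by the square root of the test's F statistic, and intervals were built from it. For genes with a group near 0 counts the fitted value depends on the prior count, so that their SEs and intervals are approximate. Tested on simulated data with 200 changed genes, the median fitted changes lay close to those put in, although not every changed gene was called. The animal is a true pairing, since all 4 libraries came from the same animal, but libraries of an animal shared little: 42 correlations of their deviations from the group means ran from -0.10 to 0.132 (median 0.0243). Alternatives were DESeq2 1.42.0, limma 3.58.1 voom with and without quality weights, other scaling and filters, animal or hemisphere blocks, and libraries or animals left out.

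3′ UTRs were the longest annotated ones per gene in GENCODE. The rule for named genes took miR-124 loci and hosts, 10 leading genes in each direction with at least 5 CPM in a group, 6 leading 8mer genes, in each list the 3 members of highest mean and those with an unadjusted p under 0.05, and genes called under any alternative. Thrb, Slit1, Vamp1 and list members named without a value are outside this rule. Lists and members were chosen with earlier results of these data known. List medians are given without a test. Some genes within the rule are not reported here. Intervals from counts and the floor of 3 counts cover counting error only.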

Additional observations from a re-analysis of the deposited data

Results flagged for a closer look

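Over 85 groups of values checked, 9 held a sample whose gap to the nearest other exceeded Dixon's 95% critical value, a number that chance alone also gives in part since about 5% of groups exceed it. In 5 of them the difference of effects by animal was extreme in animal 19: Cox5a at -4.60 (median -1.24), Mal at 5.95 (1.21), Malat1 at 1.67 (0.37), Cldn11 at 4.43 (0.14) and Csf1r at 3.67 (-0.77). Animal 22 was extreme for Itgb1, at 5.17 (median 1.48), and for Mir124-2hg, at 5.45 (0.07). Animal 18 was extreme for Cplx2, at -1.68 (median -0.20). The ribosomal RNA share of the empty HA-negative library of animal 20 was 37.3% (median of its group 25.7%).

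The hairpin Mir124a-2 differed between the fractions by 13.8 CPM on average (median over animals 5.23 CPM). Since all other libraries were at 0, no negative difference was possible, and the exact sign-flip p of 0.0312 is the smallest that 6 non-zero animals can give.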

How the results depend on the processing

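The count of 0 genes called for the difference held under every setting run except no filter on low counts, which called 3, and the number under an unadjusted p of 0.05 (359) was 301 to 382 with an animal left out and 1482 with no filter. With the replicate block the difference again gave 0 calls, with 336 genes (animal) and 302 genes (hemisphere) under an unadjusted p of 0.05, the 8mer shift was 0.15 and 0.19, and the animal block called 9 genes in HA-positive and 0 in HA-negative nuclei. A hemisphere block cannot give the effect within a fraction. The 8 calls in HA-positive nuclei became 34 with DESeq2, 5 with RLE size factors, 13 with at least 20 counts in 7 libraries, 3 with limma voom, 3 with quality weights, 65 with no filter, 2 without libraries under 10000 genes, 3 in the fit of their own 14 libraries and 3 to 8 with an animal left out, while HA-negative nuclei gave 1 with no filter. The 8mer shift was 0.36 and 0.33 in the short and middle 3′ UTR tertiles and 0.28 in the lowest CPM tertile, and 0.08 for any site in place of the 8mer. Without animal 19 the library differences turned to 1.33 percentage points of ribosomal RNA (from -0.667) and -58.3 CPM of glial markers (from 602). Of 68 named genes, 4 changed sign: Cx3cr1 to -0.08 (quality weights), -0.22 (without the doubtful library) and, with an animal left out, -0.28 to 5.65; Csf1r to -0.24, -0.91 and -1.01 to 2.05; Mir124a-1hg to -0.01 without that library and -0.10 to 0.48; and B2m to 0.13 with limma voom. Outside the doubtful library Cx3cr1 had 0 counts in HA-positive nuclei, so its -0.22 (SE 375.74) is no measured change of sign. Leaving animal 19 out removes the same counts. For the other settings and genes the cause was not tested. The fits of 14 libraries, CPM tertiles, glial gene removal and bounded medians were chosen after seeing the data. At these depths the median 95% interval of a single gene reached 1.02 on the log2 scale to either side, and the shares of counting error and of spread between animals in it were not separated.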
